A study of Mus musculus with 6 samples.

Results

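Microglia and macrophage genes were followed in bulk RNA of dissected mouse dentate tissue that carried 0, 1 or 2 floxed copies of Sox11, which encodes a transcription factor of newborn neurons. The set holds 34 genes chosen by symbol, which match 35 of the 35274 rows of the deposited expression table. Itgam has a second row (ENSMUSG00000108596.1), listed at 0 in 5 libraries and at 0.32 TPM in the other. GENCODE names that row Gm49368, and it was not used. The Itgam transcript matches that of Gm49368 over 3453 bases at 99.9% identity, so reads could have been split and the level of Itgam is uncertain. The libraries are labelled dentate neuroepithelium at E14, with the genotypes WT, SOX11f/+ and SOX11f/f and 2 libraries of each. They are called wild type, heterozygous and homozygous here. The labels add the words control, haplodeficient and homodeficient, and name no Cre driver, strain or sex. They do not state whether the libraries of a genotype stem from different animals. The p-values therefore reflect only how these libraries differ, and that spread may be technical. Levels are in TPM, a measure of transcript abundance that corrects for length, so the levels of different genes can be compared.

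Microglia are the resident macrophages of brain tissue. They descend from yolk sac progenitors that enter the embryonic brain, and they need the receptor CSF1R to survive. They take up dying cells and synaptic material, partly through complement C1q and the receptor TREM2. Border macrophages are a related population in the meninges, around vessels and in the choroid plexus, and are marked by Mrc1, Pf4, Lyve1 and Cd163. In bulk RNA, more cells of a type and more RNA per cell cannot be told apart.

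Some facts of the libraries touch these genes. Sox11 stood at 192 and 130.2 TPM in the wild type, 56.1 and 50.1 in the heterozygous and 5.23 and 5.06 in the homozygous libraries, so its level followed the labels. Read depth is unknown, since TPM does not hold it. Heterozygous replicate 1 and homozygous replicate 1 carried much choroid plexus RNA, with 11799 and 6742 TPM over 8 marker genes, mostly Ttr, against 31.8 to 298 TPM in the other 4 libraries. Homozygous replicate 2 carried the most meningeal RNA, with 1407 TPM over 8 marker genes, against 93.2 to 329.8 TPM in the others. Progenitor genes of the labelled tissue were present, with Sox2 at 72.95 to 104 TPM and Emx2 at 58.8 to 109.9 TPM. So were genes of maturing brain, with the astrocyte filament gene Gfap at 268 to 576 TPM. The embryonic globin gene Hbb-y was listed at 0 in every library, while the adult globin gene Hba-a1 stood at 198 to 343 TPM. These values put the labelled stage in doubt, and levels are given for the libraries as labelled. Wild type replicate 1 held the highest value of the 6 libraries for 41.0% of the 14518 genes tested, and for 0 of the 34 members.

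The members together made up 352 and 399 TPM in the wild type, 789 and 532 in the heterozygous and 620.2 and 704 in the homozygous libraries. Both wild type sums lay below all 4 sums of floxed libraries. The most abundant members were the C1q genes, and C1qb had the highest mean over the 6 libraries at 56.1 TPM. The least abundant was Ptprc, the leukocyte phosphatase CD45, with a mean of 1.18 TPM. All 34 members had a mean of 1 TPM or more and so entered the test, 27 had a mean of at least 5 TPM and 18 of at least 10 TPM.

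Each genotype was compared with wild type by limma on log2(TPM + 1), a scale that understates changes of low genes, and a gene was called at a Benjamini-Hochberg adjusted p below 0.05 over all 14518 genes. No member was called in any of 4 comparisons. Against wild type, 34 of 34 members were higher on average in heterozygous libraries, where 40.2% of all genes were, and the limma count of members called higher was 0 (background 0.0276%). The median log2 difference of the members was 0.64, and that of all genes -0.06. In homozygous libraries 33 of 34 were higher, where 44.8% of all genes were, and again 0 were called (background 0.0207%). There the median was 0.59, and that of all genes -0.04. With the mean of both floxed genotypes set against wild type, 34 of 34 members were higher (background 42.2%) and 0 were called (background 0.489%). These comparisons share the wild type libraries.

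The spread within genotypes shows in how often the libraries overlapped. Both heterozygous libraries lay above both wild type libraries for 27 of 34 members, against 17.1% of all genes. Both homozygous libraries did so for 26 of 34, against 23.6%. All 4 floxed libraries lay above both wild type libraries for 24 of 34 members, against 13.3%. No member lay below wild type without overlap in these comparisons, where 28.9%, 30.7% and 21.0% of all genes did. The 10 members outside the 24 were Ptprc, Tmem119, Sall1, Cd68, Cd14, Aif1 and the 4 border macrophage genes. With 2 against 2 libraries an exact two-sided test cannot go below p = 0.33, and with 4 against 2 not below 0.067. At an unadjusted limma p under 0.05, 18 members were higher in heterozygous libraries (background 6.42%), 19 in homozygous ones (background 8.35%) and 20 with both genotypes averaged (background 8.68%). The counts of lower members by that measure were 0, 0 and 0 (background 7.63%, 9.8% and 11.6%).

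**Figure D1:**
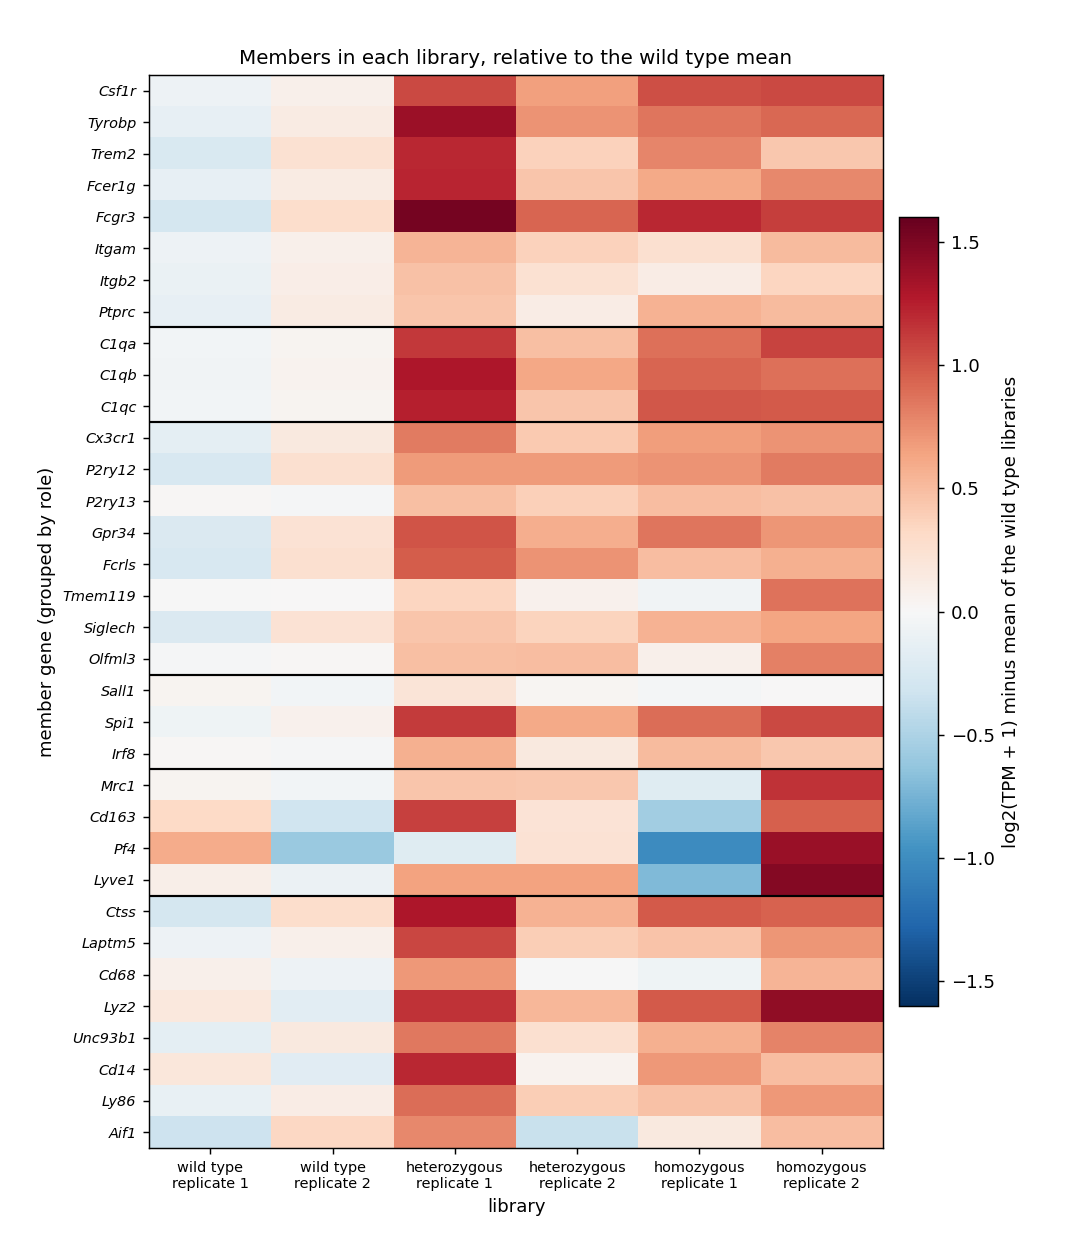
Level of each of the 34 members (rows, grouped by role) in each of the 6 libraries (columns), as log2(TPM + 1) minus the mean of the wild type libraries. Most rows are red in all 4 floxed libraries, while the border macrophage rows Mrc1, Cd163, Pf4 and Lyve1 are blue in homozygous replicate 1 and red in homozygous replicate 2.

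Receptors and signalling adapters came first among the roles. Csf1r, the receptor for the survival signals CSF1 and IL-34, stood at 14.7 and 16.6 TPM in the wild type, 33.5 and 25.2 in the heterozygous and 32.9 and 33.5 in the homozygous libraries. Every floxed library was above both wild type libraries. The log2 difference given for it and for later genes is that of both floxed genotypes averaged against wild type, unless another comparison is named. Its difference had the smallest p of all members and still missed the threshold (log2 difference 0.95, SE 0.14, limma adjusted p = 0.0521). The heterozygous difference was 0.86 (SE 0.16, limma adjusted p = 0.180) and the homozygous one 1.04 (SE 0.16, limma adjusted p = 0.0682). Csf1r shares 873 bases of exon with Hmgxb3 on the opposite strand, and the labels do not say that counting used strand, so part of its level is uncertain.

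Tyrobp, the membrane adapter DAP12 that carries the signal of TREM2, stood at 23.4 and 28.3 TPM in the wild type, 68.4 and 43.1 in the heterozygous and 47.4 and 49.7 in the homozygous libraries (log2 difference 0.97, SE 0.19, limma adjusted p = 0.0796). Trem2 itself, a receptor for lipids and cell debris, stood at 10.5 and 14.99 TPM in the wild type, 30.4 and 16.5 in the heterozygous and 22.2 and 17.2 in the homozygous libraries. Its heterozygous replicate 2 and homozygous replicate 2 lay only little above wild type replicate 2, and the difference did not pass (log2 difference 0.70, SE 0.27, limma adjusted p = 0.218). Fcer1g, the adapter chain of Fc receptors, ranged from 13.2 to 35.1 TPM, with all floxed libraries above wild type. The low-affinity immunoglobulin receptor gene Fcgr3 had the largest averaged log2 difference of the 34 members, at 8.19 and 12.5 TPM in the wild type, 31.1 and 20.2 in the heterozygous and 24.7 and 23.1 in the homozygous libraries (log2 difference 1.19, SE 0.22, limma adjusted p = 0.0758). Its transcript matches that of Fcgr2b over 509 bases at 96.5% identity, so reads could have been split between both. The leukocyte integrin genes Itgam and Itgb2, which pair to form complement receptor 3, were low, at 2.34 to 4.18 and 0.76 to 1.63 TPM, and Ptprc ran from 0.62 to 1.62 TPM. In Itgam and Itgb2 all floxed libraries lay above wild type, and in Ptprc heterozygous replicate 2 lay below wild type replicate 2.

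The 3 C1q genes encode the chains of the C1q molecule, which starts the classical complement pathway and tags synapses and debris for uptake. They lie side by side on the minus strand of chromosome 4 in GRCm38, C1qb from 136880129 to 136886187, C1qc from 136889804 to 136893065 and C1qa from 136895917 to 136898803. C1qa stood at 32.1 and 33.9 TPM in the wild type, 73.8 and 46.7 in the heterozygous and 61.9 and 71.1 in the homozygous libraries. C1qb stood at 32.8 and 35.6 TPM in the wild type, 85.4 and 53.2 in the heterozygous and 66.0 and 63.7 in the homozygous libraries, and C1qc at 30.0 and 32.01 TPM in the wild type, 74.6 and 42.6 in the heterozygous and 62.6 and 61.9 in the homozygous libraries. In all 3 genes both wild type libraries were within a few TPM of each other, heterozygous replicate 1 was the highest library, and no floxed library reached down to wild type. None passed. The log2 differences were 0.90, 0.93 and 0.91 for C1qa, C1qb and C1qc, with SE 0.18, 0.18 and 0.21 and limma adjusted p = 0.0862, 0.0796 and 0.103.

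**Figure D2:**
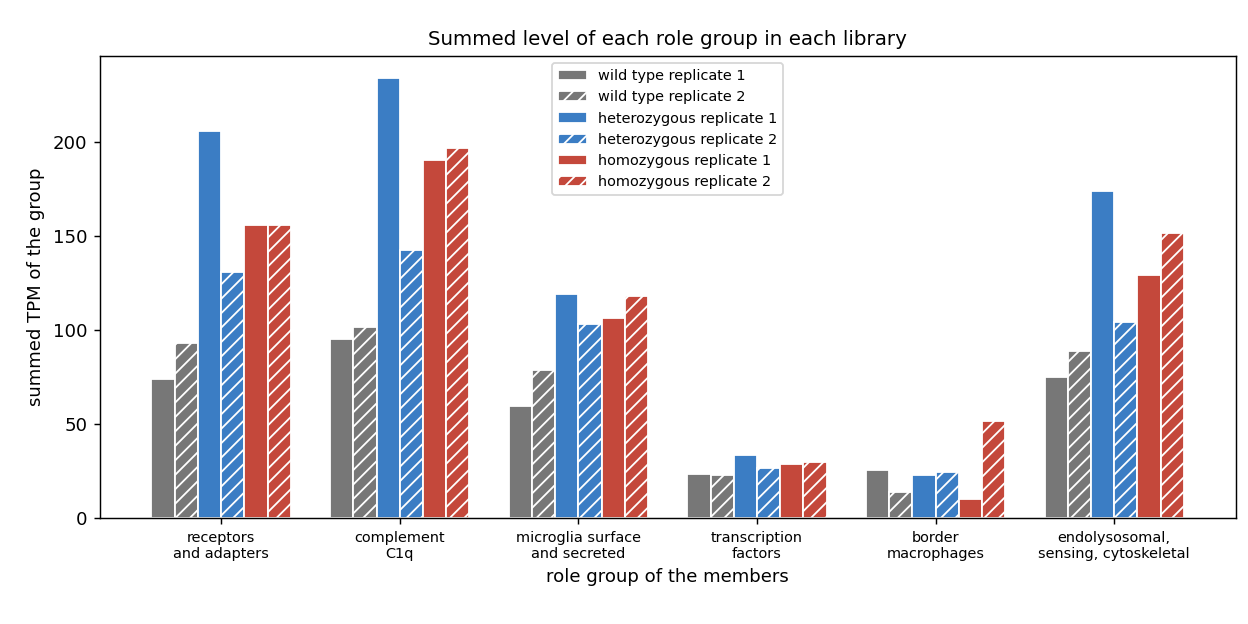
Summed TPM of each role group of members (groups on the x axis) in each of the 6 libraries (bars). The C1q sum is 94.9 and 102 TPM in wild type and between 142 and 234 TPM in the floxed libraries, while the border macrophage sum is highest in homozygous replicate 2 at 51.5 TPM and lowest in homozygous replicate 1 at 9.82 TPM.

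To show what the start sites of such genes look like, the 250 bases before the RefSeq start are given for genes of both patterns, from RefSeq on GRCm38.p6 and read 5′ to 3′ on the gene's strand. Promoter windows were at hand for 24 of the 34 members. Capitals mark GAGGAA or its reverse complement TTCCTC, a sequence that PU.1, the protein made by Spi1, is known to bind. Shorter or other forms of the site were not searched for. The letters were searched on both strands, and a match describes the letters and not a bound site.
C1qb (chr4:136886201-136886450, minus strand): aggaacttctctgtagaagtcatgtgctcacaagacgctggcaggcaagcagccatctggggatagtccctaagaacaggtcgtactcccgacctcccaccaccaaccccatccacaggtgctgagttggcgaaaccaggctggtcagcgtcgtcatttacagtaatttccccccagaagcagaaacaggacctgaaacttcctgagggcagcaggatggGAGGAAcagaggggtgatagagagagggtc
Trem2 (chr17:48346151-48346400, plus strand): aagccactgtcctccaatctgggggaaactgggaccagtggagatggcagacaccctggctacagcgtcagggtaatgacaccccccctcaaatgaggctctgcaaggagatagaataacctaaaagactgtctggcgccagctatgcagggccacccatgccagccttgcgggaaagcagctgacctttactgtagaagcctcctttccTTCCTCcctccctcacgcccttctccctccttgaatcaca
Ctss (chr3:95526536-95526785, plus strand): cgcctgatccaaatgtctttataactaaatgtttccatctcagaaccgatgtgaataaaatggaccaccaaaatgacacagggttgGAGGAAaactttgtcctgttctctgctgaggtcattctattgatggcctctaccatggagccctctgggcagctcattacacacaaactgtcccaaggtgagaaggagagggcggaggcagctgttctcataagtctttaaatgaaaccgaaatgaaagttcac
P2ry12 (chr3:59262986-59263235, minus strand): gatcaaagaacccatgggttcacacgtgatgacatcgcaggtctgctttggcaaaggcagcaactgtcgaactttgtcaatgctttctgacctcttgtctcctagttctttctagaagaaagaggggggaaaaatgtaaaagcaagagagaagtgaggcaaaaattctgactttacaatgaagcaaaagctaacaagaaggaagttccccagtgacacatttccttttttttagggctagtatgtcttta
Pf4 (chr5:90772185-90772434, plus strand): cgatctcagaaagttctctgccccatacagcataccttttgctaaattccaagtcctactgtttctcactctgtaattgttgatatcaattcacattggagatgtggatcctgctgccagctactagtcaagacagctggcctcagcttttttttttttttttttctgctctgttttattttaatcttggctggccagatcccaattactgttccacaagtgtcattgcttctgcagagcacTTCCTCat
The C1qb match begins 30 bases before the start, that of Trem2 40 bases, that of Ctss 164 bases and that of Pf4 8 bases. The P2ry12 window holds neither GAGGAA nor TTCCTC, though it holds the shorter ggaa, which was not marked in any window. Of the 24 members with a window, 14 held a match, and of all 27025 genes with a window 25.9% did. Among the genes shown, C1qb, Trem2, Ctss and P2ry12 lay above wild type in all floxed libraries, and Pf4 did not.

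Surface genes of microglia were next. P2ry12, the ADP receptor by which microglia sense injury, stood at 16.1 and 23.5 TPM in the wild type, 31.7 and 31.9 in the heterozygous and 32.6 and 35.4 in the homozygous libraries. It was the member of this group with the smallest p, and did not pass (log2 difference 0.73, SE 0.16, limma adjusted p = 0.0967). P2ry12 lies on chromosome 3 from 59216272 to 59262871 next to P2ry13 and inside Med12l on the other strand, with which its exons overlap, so its level is uncertain without strand. Cx3cr1, the receptor for the neuronal chemokine fractalkine, stood at 12.9 and 16.2 TPM in the wild type, 26.4 and 19.6 in the heterozygous and 23.6 and 24.3 in the homozygous libraries (log2 difference 0.66, SE 0.16, limma adjusted p = 0.115). Siglech, a lectin of microglia, stood at 3.89 and 5.73 TPM in the wild type, 6.77 and 6.32 in the heterozygous and 7.45 and 7.92 in the homozygous libraries (log2 difference 0.50, SE 0.18, limma adjusted p = 0.210).

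For P2ry12, Cx3cr1 and Siglech, no floxed library overlapped wild type, and wild type replicate 1 was the lowest library. The same held for the lysophospholipid receptor gene Gpr34, at 5.03 to 13.2 TPM, the Fc receptor-like gene Fcrls, at 8.91 to 22.2 TPM, and the secreted protein gene Olfml3, at 3.95 to 7.84 TPM. P2ry13, a further ADP receptor, did not overlap either, at 4.70 to 7.18 TPM. Tmem119, a membrane protein of microglia that osteoblasts also make, had another order of libraries. It stood at 4.05 and 4.10 TPM in the wild type, 5.46 and 4.34 in the heterozygous and 3.90 and 8.23 in the homozygous libraries (log2 difference 0.31, SE 0.27, limma adjusted p = 0.538). Homozygous replicate 1 lay below both wild type libraries and homozygous replicate 2 at the top. Without homozygous replicate 2 the homozygous difference was -0.051 in place of 0.41.

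Of the 3 transcription factor genes, Spi1 encodes PU.1, which all macrophages need. It stood at 3.45 and 3.91 TPM in the wild type, 9.19 and 6.10 in the heterozygous and 7.66 and 8.72 in the homozygous libraries (log2 difference 0.92, SE 0.20, limma adjusted p = 0.0971). Irf8, a partner of PU.1, stood at 3.40 and 3.31 TPM in the wild type, 5.48 and 3.87 in the heterozygous and 5.20 and 4.87 in the homozygous libraries (log2 difference 0.42, SE 0.19, limma adjusted p = 0.270). In both, the floxed libraries lay above wild type, and the Irf8 difference was the smaller. Sall1 holds the identity of adult microglia, and neural progenitors express it too. It stood at 16.8 and 15.8 TPM in the wild type, 18.9 and 16.7 in the heterozygous and 15.8 and 16.4 in the homozygous libraries (log2 difference 0.051, SE 0.12, limma adjusted p = 0.825). Its libraries overlapped, and its homozygous difference of -0.016 was above 0 under both other scalings, at 0.056 with median-of-ratios rescaling and 0.010 with Ttr and mitochondrial transcripts removed.

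Endolysosomal and sensing genes made up the rest of the brain macrophage members. Lyz2, the lysozyme of myeloid cells, had the smallest p of this group at 11.8 and 9.13 TPM in the wild type, 24.4 and 15.5 in the heterozygous and 21.4 and 29.5 in the homozygous libraries (log2 difference 1.02, SE 0.22, limma adjusted p = 0.0981). Its transcript matches Lyz1 over 1264 bases at 95.8% identity, so its level is uncertain. Ctss, the lysosomal protease cathepsin S, stood at 15.3 and 22.97 TPM in the wild type, 47.6 and 28.2 in the heterozygous and 38.2 and 37.1 in the homozygous libraries (log2 difference 0.95, SE 0.24, limma adjusted p = 0.119). In Lyz2 and Ctss all floxed libraries were above wild type. So were they in Laptm5, a lysosomal membrane protein gene at 13.3 to 31.04 TPM, in Unc93b1, which delivers nucleic acid sensors to endosomes, at 8.09 to 17.3 TPM, and in Ly86, a cofactor of innate sensing, at 10.6 to 22.4 TPM.

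Cd68, Cd14 and Aif1 overlapped with wild type. Cd68, a lysosomal glycoprotein, ran from 6.35 to 11.5 TPM, and Cd14, the lipopolysaccharide co-receptor, from 1.25 to 4.89 TPM. Aif1, the actin-binding protein IBA1 by which microglia are often stained, stood at 6.44 and 10.7 TPM in the wild type, 14.9 and 6.31 in the heterozygous and 9.37 and 12.1 in the homozygous libraries (log2 difference 0.26, SE 0.34, limma adjusted p = 0.679). Heterozygous replicate 2 was its lowest library and heterozygous replicate 1 its highest. Without heterozygous replicate 1 the heterozygous difference of Aif1 was -0.35 in place of 0.21, and without wild type replicate 1 it was -0.12.

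**Figure D3:**
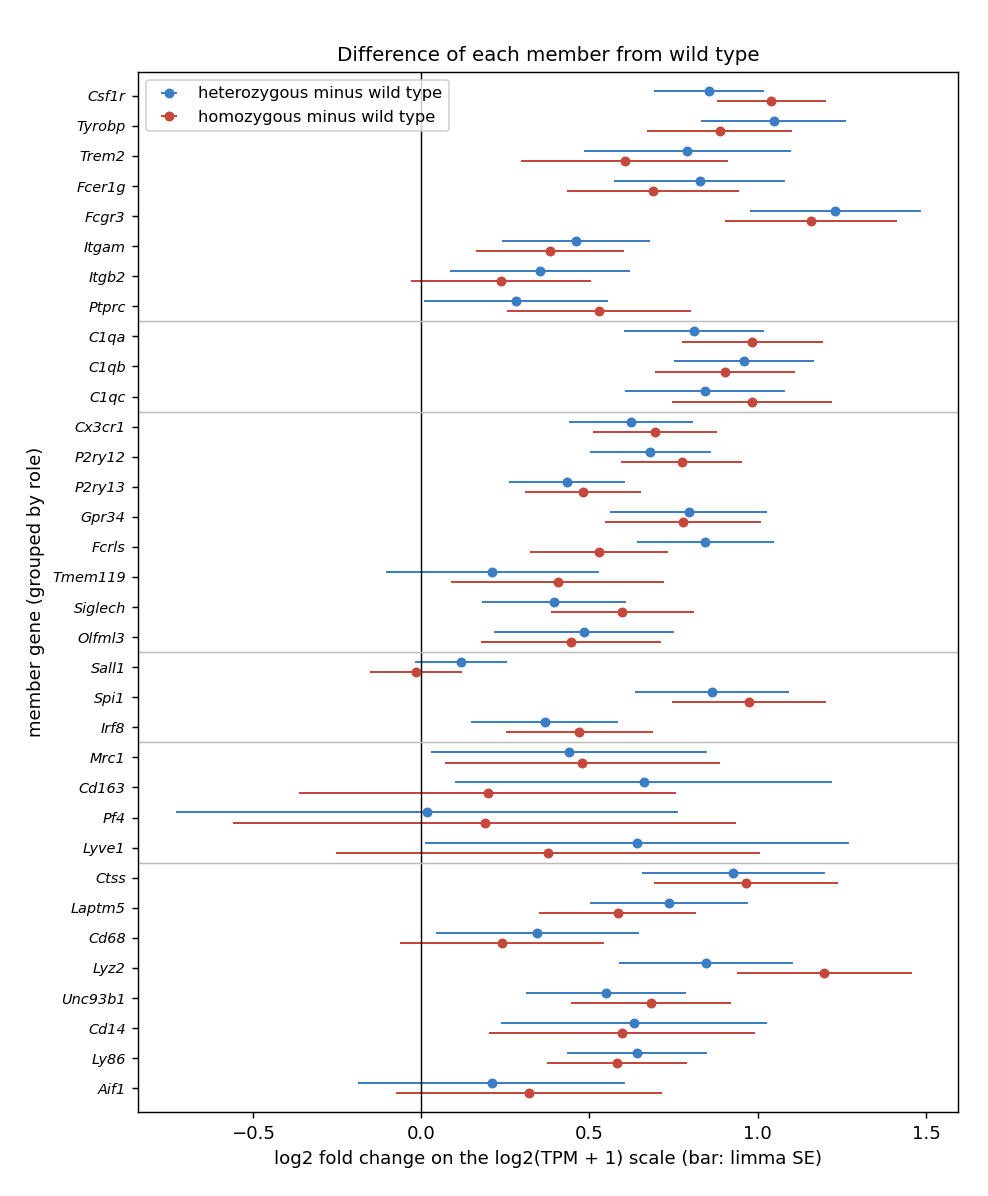
Difference of each member from wild type on the log2(TPM + 1) scale (x axis) in heterozygous (blue) and homozygous (red) libraries, with limma's SE as bars. Fcgr3 lies at 1.23 and 1.16, Sall1 at 0.12 and -0.016, and the widest bars belong to Pf4, with SE 0.75.

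The border macrophage genes were read next. Mrc1, the mannose receptor, stood at 4.27 and 3.94 TPM in the wild type, 5.96 and 5.87 in the heterozygous and 3.45 and 10.4 in the homozygous libraries (log2 difference 0.46, SE 0.36, limma adjusted p = 0.478). Pf4, a chemokine of these macrophages and of platelets, stood at 16.9 and 6.93 TPM in the wild type, 9.41 and 12.97 in the heterozygous and 4.96 and 29.97 in the homozygous libraries (log2 difference 0.10, SE 0.65, limma adjusted p = 0.942). Lyve1, a hyaluronan receptor shared with lymphatic endothelium, stood at 2.58 and 2.15 TPM in the wild type, 4.25 and 4.23 in the heterozygous and 1.05 and 8.28 in the homozygous libraries (log2 difference 0.51, SE 0.54, limma adjusted p = 0.612). Cd163, the haemoglobin scavenger receptor, stood at 1.50 and 0.61 TPM in the wild type, 3.30 and 1.34 in the heterozygous and 0.36 and 2.89 in the homozygous libraries (log2 difference 0.43, SE 0.49, limma adjusted p = 0.633). Homozygous replicate 1 was the lowest of all 6 libraries in each of the 4 genes, and homozygous replicate 2 the highest in all but Cd163. Among the microglia genes of the rule, Tmem119 had the same lowest and highest library. Mrc1 and Lyve1 were higher in both heterozygous than in both wild type libraries (background 17.1%). In homozygous libraries 0 of the 4 were so (background 23.6%), and 4 genes are too few to set against that share. Some genes listed for microglia also split between the homozygous libraries, with Tmem119 at 3.90 and 8.23 TPM and Olfml3 at 4.31 and 7.84 TPM. P2ry12, Siglech and Sall1 did so less, at 32.6 and 35.4, 7.45 and 7.92, and 15.8 and 16.4 TPM. The difference between the groups of genes was not tested.

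**Figure D4:**
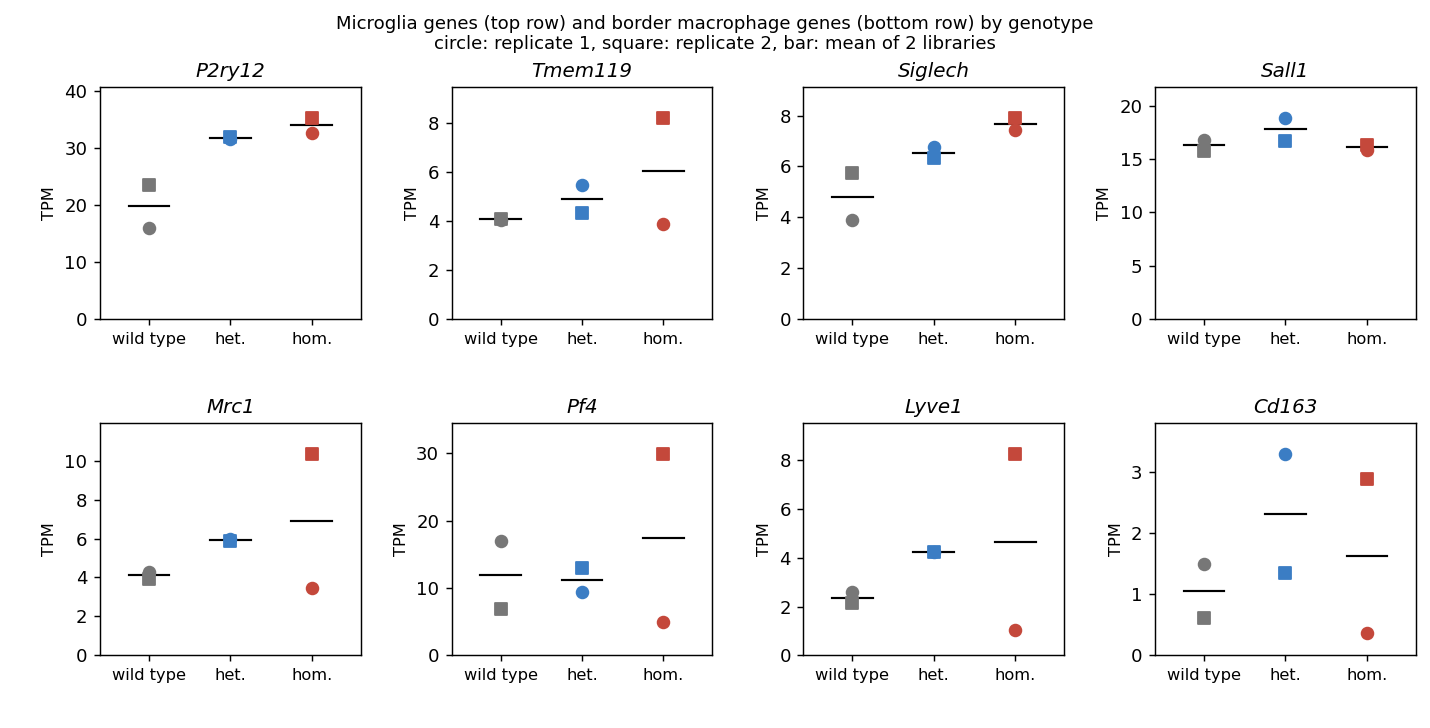
TPM (y axis, from 0) of 4 microglia genes (top) and 4 border macrophage genes (bottom) by genotype, 1 point per library and a bar at the mean of 2. P2ry12 and Siglech lie above wild type in all 4 floxed libraries, and for Mrc1, Pf4 and Lyve1 the homozygous libraries lie at both ends of the scale.

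Taking the rule's microglia genes P2ry12, Tmem119, Siglech and Sall1 against its border macrophage genes, the mean log2(TPM + 1) of the former was higher in every library. The excess was 0.79 and 1.54 in the wild type, 1.08 and 1.07 in the heterozygous and 2.08 and 0.51 in the homozygous libraries. The ratio of P2ry12 to Mrc1 was 3.77 and 5.96 in the wild type, 5.31 and 5.43 in the heterozygous and 9.46 and 3.41 in the homozygous libraries. The lowest and the highest value of both measures came from the 2 homozygous libraries, and the other 4 libraries lay between them. Sall1, which neural progenitors also express, enters the microglia mean at 15.8 to 18.9 TPM, and its part in the excess was not tested. As the genes were chosen, these measures were not tested.

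Meningeal genes went with the border macrophage genes. Relative to the wild type mean, the 4 border macrophage genes lay on average at 0.26 and -0.26 in the wild type, 0.50 and 0.38 in the heterozygous and -0.62 and 1.24 in the homozygous libraries, on the log2(TPM + 1) scale. The 8 meningeal markers, which include the collagen genes Col1a1 and Col1a2 and the prostaglandin synthase gene Ptgds, lay at 0.53 and -0.53 in the wild type, -0.05 and -0.01 in the heterozygous and -0.89 and 1.53 in the homozygous libraries. The extremes were the same libraries in both lists. The heterozygous libraries did not follow this order, with the border macrophage genes at 0.50 and 0.38 and the meningeal genes at -0.05 and -0.01. Pericyte and endothelial markers were also lowest in homozygous replicate 1, at -0.53 and -0.43, and highest in homozygous replicate 2, at 0.62 and 0.42. The 30 other members lay at -0.10 and 0.10 in the wild type, 0.89 and 0.39 in the heterozygous and 0.59 and 0.73 in the homozygous libraries. The part of meningeal and vessel RNA in the border macrophage differences was not tested. Lists of neural cells were read on the same scale. Of all genes, 42.2% were higher with both floxed genotypes averaged, 0.489% were called higher and 0.103% lower. The 8 neuron markers lay at -0.12 and 0.12 in the wild type, -0.55 and -0.10 in the heterozygous and -0.31 and -0.28 in the homozygous libraries, and 3 of the 8 were higher with both floxed genotypes averaged. The 8 oligodendrocyte lineage markers lay at -0.22 and 0.22 in the wild type, 0.18 and 0.26 in the heterozygous and 0.11 and 0.76 in the homozygous libraries, and 7 of the 8 were higher. The 8 markers of radial glia and dentate neuroepithelium lay at 0.17 and -0.17 in the wild type, 0.05 and -0.18 in the heterozygous and -0.04 and -0.01 in the homozygous libraries, and 3 of the 8 were higher. In the wild type the 8 astrocyte markers lay at -0.06 and 0.06. They lay at 0.27 and 0.48 in the heterozygous and 0.27 and 0.76 in the homozygous libraries, and 8 of the 8 were higher. No gene of these 4 lists was called by limma, and the part of the neural makeup of the libraries in the members' differences was not tested. Of 5 platelet and megakaryocyte markers beside Pf4, Gp9 ran from 0 to 0.67 TPM, Ppbp from 0 to 0.18 TPM, Itgb3 from 0.99 to 2.85 TPM, Itga2b from 1.80 to 4.60 TPM and Gp1bb from 16.6 to 25.2 TPM, and the part of platelet RNA in Pf4 was not tested.

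**Figure D5:**
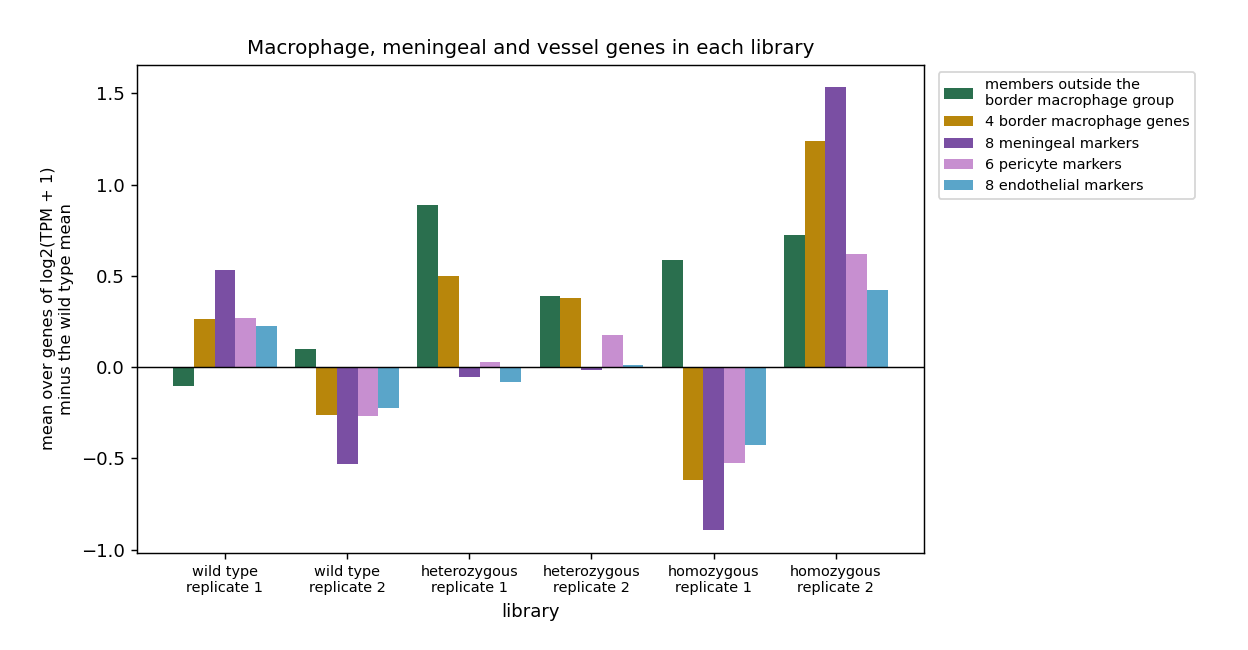
Mean over genes of log2(TPM + 1) minus the wild type mean (y axis) in each library (x axis) for the 30 members outside the border macrophage group, the 4 border macrophage genes, and meningeal, pericyte and endothelial markers. The 30 members are above 0 in all 4 floxed libraries, while the other lists are below 0 in homozygous replicate 1 and above it in homozygous replicate 2.

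Libraries rich in other tissue were set beside these results. The choroid plexus libraries, heterozygous replicate 1 and homozygous replicate 1, averaged 0.89 and 0.59 over the 30 members. The other floxed libraries averaged 0.39 and 0.73, with Ttr at 4.44 and 184 TPM against 3.07 and 2.04 in the wild type. Relative to the wild type mean, the 8 choroid plexus markers lay at 0.10 and -0.10 in the wild type. They lay at 5.57 and 0.49 in the heterozygous and 4.87 and 2.07 in the homozygous libraries. With both floxed genotypes averaged 8 of the 8 were higher (background 42.2%) and 0 were called by limma (background 0.489% higher). The part of choroid plexus RNA in the members' differences was not tested. With the 2 Ttr-rich libraries left out, 27 members had both remaining floxed libraries above wild type, as had 21.7% of all genes. With the 2 libraries richest in meningeal RNA left out (wild type replicate 1 and homozygous replicate 2), 3 floxed libraries and 1 wild type library remained. This setting was chosen after the values were seen. The 3 floxed libraries lay above the wild type one for 27 members, as for 28.8% of all genes. Within heterozygous tissue, replicate 1 held the highest value of all libraries for 24 of the 34 members, where it did so for 18.6% of all genes.

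The count of members called depended on which libraries entered the fit, and so did that of all genes. For homozygous against wild type, 7 members were called with homozygous and wild type libraries only, where 2.29% of all genes were called higher. The 7 were C1qa, C1qb, C1qc, Csf1r, Fcgr3, Lyz2 and Tyrobp. With either heterozygous library left out, the lone one that remains adds no spread. The homozygous difference and its spread then come from the same libraries, so those fits are no separate result. For heterozygous against wild type, 0 were called in every setting that kept both libraries of each compared genotype. Without heterozygous replicate 2, the only heterozygous library left is replicate 1, which held the most Ttr. Leaving out a heterozygous library changes the heterozygous mean as well as the spread. Members called there in the heterozygous or averaged comparison rest on 1 heterozygous library and are not counted. All members called lay above wild type.

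The 2 floxed genotypes were then compared with each other. Of 34 members, 17 were higher in homozygous and 17 in heterozygous libraries (background 54.1% higher), the median difference was 0.01, and 0 were called by limma in either direction (background 0.00689% higher and 0.00689% lower). At an unadjusted limma p under 0.05 the counts were 0 higher (background 1.14%) and 0 lower (background 0.902%). Homozygous libraries lay above heterozygous ones without overlap for P2ry12, Siglech and Ptprc (background 15.3%), and below them for Fcrls and Sall1 (background 13.7%). For Csf1r the difference was 0.19 (SE 0.16, limma adjusted p = 0.9999), and for C1qb -0.057 (SE 0.21). The count of members higher without overlap depended on which libraries entered. With heterozygous replicate 1 left out, 1 heterozygous library remained. Both homozygous libraries then lay above it for 23 members, as for 41.1% of all genes. Without homozygous replicate 1 the count was 9, against 35.1% of all genes. With both Ttr-rich libraries left out, 1 library of each floxed genotype remained, and no overlap means only that 1 value is the larger. There 32 members were higher in the homozygous library, against 60.1% of all genes.

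Pathway genes around the members were counted with the same fit. Over all genes, at most 0.489% were called higher and 0.103% lower in a comparison, so a count of 0 says little about lists this small. Among 13 tested genes of CSF1R ligands and microglia survival, 0 were called in any comparison. The CSF1R ligand gene Csf1 stood at 9.47 and 8.60 TPM in the wild type, 13.5 and 8.74 in the heterozygous and 7.84 and 11.2 in the homozygous libraries, and Il34, the neuronal ligand, at 6.23 and 5.18 TPM in the wild type, 6.52 and 5.24 in the heterozygous and 3.69 and 10.6 in the homozygous libraries. Both overlapped between genotypes. The most abundant of that list was Tgfbr1, a receptor for the TGF-beta that microglia need, at 24.6 to 40.1 TPM. Of 11 tested genes of DAP12 signalling 0 were called, and Lyn, a Src family kinase and the most abundant, stood at 7.39 to 10.8 TPM. Of 6 tested complement genes beside C1q 0 were called, with the C1 inhibitor gene Serping1 highest at 16.03 to 37.3 TPM. C3, which acts downstream of C1q, was listed at 0.08 to 0.37 TPM.

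Of 6 tested ligands and counter-receptors of microglial receptors, Apoe, a lipid carrier that TREM2 binds and astrocytes also make, was called higher with both floxed genotypes averaged (log2 difference 1.06, SE 0.14, limma adjusted p = 0.0430). It stood at 830.4 and 1107 TPM in the wild type, 2000.5 and 1666 in the heterozygous and 2115 and 2285 in the homozygous libraries, and all floxed libraries were above wild type. Its limma adjusted p was 0.157 for heterozygous and 0.0610 for homozygous against wild type alone. The call was lost in 9 of 15 other settings, which include leaving out either wild type or either homozygous library, with limma adjusted p-values from 0.00532 to 0.904 over all settings. Cx3cl1, the ligand of Cx3cr1, overlapped between genotypes at 29.1 to 79.2 TPM. The 8 astrocyte markers lay on average at -0.06 and 0.06 in the wild type, 0.27 and 0.48 in the heterozygous and 0.27 and 0.76 in the homozygous libraries on the log2 scale relative to the wild type mean, and their part in the Apoe difference was not tested.

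Further genes of brain macrophages were read the same way. Of all genes, 42.2% were higher with both genotypes averaged and 0.489% called higher. Of 18 further microglia genes 15 were higher and 0 were called. The most abundant of the list, the protease inhibitor gene Cst3, stood at 1030.3 to 1517 TPM. Of 9 tested further border macrophage genes 7 were higher and 0 called, with Dab2, an endocytic adapter, highest in mean. Antigen presentation genes gave 0 calls among 6 tested, led by B2m at 95.2 to 150.3 TPM, and inflammatory genes 0 among 2, Il18 at 21.8 to 33.7 TPM and the chemokine gene Ccl3 at 0.78 to 6.72 TPM. Tnf, Il6 and Il1b lay at or below 0.90 TPM in every library. The 8 markers of monocytes and neutrophils summed to 2.71 to 5.61 TPM and the 8 of lymphoid cells to 2.37 to 4.45 TPM, with Ccr2, the receptor of recruited monocytes, at most 0.03 TPM and the T cell gene Cd3g listed at 0 in all libraries.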

How the data were processed

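Members and lists were chosen with earlier results of these data known. The deposited TPM values were made by the authors, 1 column per library, scaled to a common total. TopHat 2.0.11, Cufflinks 2.2.1 and mm10 are named per the labels, while RSEM stands in the submitters' processing notes, so the tool behind the values is not settled. TPM keeps no counts, so no count model, counting interval or detection floor was used, and TPM values share a fixed total. The 14518 genes averaging 1 TPM or more were fitted as log2(TPM + 1) with limma 3.58.1 in R 4.3.3, all 6 libraries in 1 fit, genotype as the term (3 residual degrees of freedom), eBayes with trend and Benjamini-Hochberg adjustment at 0.05.  Named genes were the rule's 8, 9 core members, the smallest p of each role group and the most abundant of each further list. Other list genes were chosen after their values were seen, and 1 gene of the further lists is not reported here. Marker sums used lists of 6 to 8 genes. Positions and overlaps came from GENCODE on GRCm38, similar transcripts from BLAST 2.17.0 (at least 200 bases at 90% identity), and promoters from RefSeq. Alternatives covered pseudocount, filter, scaling, replicate block and libraries left out.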

Additional observations from a re-analysis of the deposited data

How the results depend on the processing

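The limma count of members called was 0 in all comparisons as reported. It was 1 (Csf1r) for homozygous against wild type with a pseudocount of 0.1, where 0.806% of all genes were called higher. With the replicate block it was also 1 (Csf1r, 1.11% of all genes), and with the compared genotypes only 7 (2.29%). Leaving out both Ttr-rich libraries leaves 1 library of each floxed genotype, and leaving out 1 library leaves 1 of its genotype. A lone library is then assumed to vary like the others, so genes called in such settings are not counted here. With both floxed genotypes averaged the count was 1 (Csf1r) with a pseudocount of 0.1 (1.27%) or the replicate block (1.67%). A minimum mean of 5 TPM gave it as 1 too (Csf1r, 0.443%). Leaving out 1 library, a lone library then being assumed to vary like the others, it ran from 0 to 9 for heterozygous, 0 to 7 for homozygous and 0 to 12 for averaged genotypes. The lowest limma adjusted p of a member ran over all settings from 0.0069 to 0.954, 0.00883 to 0.995 and 0.00287 to 0.904. Over all genes the calls as reported were 5, 6, 2 and 86 in the 4 comparisons, and ran from 1 to 397, 1 to 491, 1 to 12 and 1 to 601. The members' median log2 difference kept its sign, at 0.41 to 0.87, 0.44 to 0.79 and 0.45 to 0.74 against wild type. Median-of-ratios rescaling moved the median of all genes by less than 0.1. Replicate numbers do not pair the libraries by the labels, and deviations of same-numbered libraries correlated at 0.212, -0.0882 and 0.345 over the 3 pairs of genotypes, so the block is given here only.

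Several log2 differences from wild type that did not pass changed sign, and the cause was not tested. Without the 2 libraries with the most meningeal RNA, chosen after seeing the data, the homozygous difference was -0.058 for Tmem119, 0.0034 for Sall1, -0.15 for Mrc1, -0.24 for Cd163, -0.41 for Pf4, -0.62 for Lyve1 and -0.18 for Aif1, and that of Aif1 was -0.12 in heterozygous and -0.15 in averaged genotypes. Without the most Ttr, it was 0.0060 for homozygous Sall1, and -0.0046 for Cd68 and -0.35 for Aif1 in heterozygous libraries. Rescaling gave homozygous Sall1 0.056, and removing Ttr and mitochondrial transcripts 0.010. Leaving out 1 library, homozygous differences ran from -0.051 to 0.86 for Tmem119, -0.056 to 0.025 for Sall1, -0.20 to 1.16 for Mrc1, -0.56 to 0.96 for Cd163, -1.0001 to 1.38 for Pf4, -0.71 to 1.47 for Lyve1, -0.070 to 0.55 for Cd68 and -0.0073 to 0.65 for Aif1. Heterozygous ones ran from -0.57 to 0.60 for Pf4, -0.0046 to 0.70 for Cd68 and -0.35 to 0.77 for Aif1, and averaged ones from -0.49 to 0.70 for Pf4, -0.035 to 1.05 for Lyve1 and -0.063 to 0.59 for Aif1. The excess of microglia over border macrophage genes moved by less than 0.71, the SD within genotypes pooled over the 3 genotypes, in all libraries and settings. The heterozygous replicates lay closer together, at 1.08 and 1.07, and reached 1.19 and 1.24 over the settings.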

Other observations

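Of the 6 mast cell markers, Kit, which other cells also express, stood at 28.4 and 30.4 TPM in the wild type, 28.9 and 31.02 in the heterozygous and 36.5 and 34.1 in the homozygous libraries, and the other 5 were low. The chymase gene Cma1 stood at 0.71 and 0.26 TPM in the wild type, 1.88 and 4.09 in the heterozygous and 0.24 and 6.93 in the homozygous libraries, and the tryptase gene Tpsb2 at 0.79 and 0.17 TPM in the wild type, 1.13 and 5.18 in the heterozygous and 0.55 and 4.73 in the homozygous libraries. The carboxypeptidase gene Cpa3 stood at 0.95 and 0.56 TPM in the wild type, 1.16 and 3.49 in the heterozygous and 0.17 and 3.76 in the homozygous libraries. Homozygous replicate 1 was highest for Kit. In Cma1, Tpsb2 and Cpa3, heterozygous replicate 2 and homozygous replicate 2 were the highest libraries. Mcpt4 ran from 0 to 0.93 TPM, and Fcer1a was listed at 0 in every library. Cma1, Tpsb2 and Cpa3 did not pass with both floxed genotypes averaged by limma (adjusted p = 0.352, 0.328 and 0.550).

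Of 9 tested genes listed for activated or axon-tract microglia, 7 were higher with both floxed genotypes averaged, where 42.2% of all genes were, and 0 were called by limma (0.489% of all genes called higher). The most abundant, the lipid-binding gene Fabp5, stood at 843 to 987 TPM. Of the list's 12 genes, 7 were highest in heterozygous replicate 1, 2 in wild type replicate 1 (Cd9, Fabp5), 1 in wild type replicate 2 (Lpl) and 2 in homozygous replicate 2 (Axl, Cd63). The 4 genes that follow are among those highest in heterozygous replicate 1 and were chosen after their values were seen. Spp1, the secreted protein osteopontin, stood at 6.65 and 3.72 TPM in the wild type, 68.4 and 5.29 in the heterozygous and 12.2 and 6.08 in the homozygous libraries. Clec7a, a beta-glucan receptor, stood at 0.23 and 0.08 TPM in the wild type, 1.82 and 0.41 in the heterozygous and 0.72 and 0.75 in the homozygous libraries, and Gpnmb, a lysosomal glycoprotein, at 0.46 and 0.36 TPM in the wild type, 3.05 and 0.65 in the heterozygous and 1.39 and 1.18 in the homozygous libraries. Lgals3, the lectin galectin-3, stood at 2.04 and 2.55 TPM in the wild type, 12.4 and 5.74 in the heterozygous and 9.39 and 6.39 in the homozygous libraries, with all floxed libraries above wild type (log2 difference 1.47, SE 0.31, limma adjusted p = 0.0919). The same library held the most Ttr of the series, and the part of choroid plexus RNA in these values was not tested.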
